A study of Rattus norvegicus with 30 samples.

Results

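Cultured rat hepatocytes that received vehicle and no test compound were compared at 48 h and at 24 h after dosing, to describe how their transcript levels drifted over a day of culture. The 10 vehicle wells, 5 at each time, were chosen by their labels, and they belong to a series of 30 wells in 6 groups. All wells held purchased frozen primary hepatocytes of male Sprague Dawley rats, grown on collagen under an overlay of Matrigel, a gel of basement membrane proteins. Their age is not given in the sources used here. Dosing was on day 3 of culture. The vehicle wells carried 1% DMSO, and the other groups were wells with 8 µM or 200 µM WY-14643 (pirinixic acid, an agonist of the nuclear receptor PPARα), also dosed from DMSO and harvested at the same times. The labels describe the 5 wells of each group as separate cultures and do not say whether the cells came from different animals. Errors and p-values therefore measure the spread between wells.

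Hepatocytes in the liver secrete most plasma proteins, make bile acids and urea, and clear foreign compounds with cytochromes P450. They hold this program under a network of transcription factors that includes HNF4α and nuclear receptors, and under hormones such as the pulses of growth hormone that set the sex-specific P450s of the rat. Isolated hepatocytes are known to lose much of this program in culture, and an overlay of matrix is used to slow that loss. Preparations of hepatocytes also carry other liver cells, among them Kupffer cells, the resident macrophages of the liver.

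Each array gave 1 signal per probe set, with all arrays at a shared trimmed mean near 1500 units as deposited, and 11545 genes passed a filter on low signals. The word signal is used for these linear values, and log2 fold changes are differences of log2(signal + 16), 48 h minus 24 h, tested with limma. One array stood apart before any gene was compared. Vehicle replicate 4 at 48 h had a median signal of 765, against 396 to 439 on the other 9 vehicle arrays. Its share of probe sets above the filter was 73.9%, against 58.2% to 61.2%, and its median correlation with its own group was 0.896, against 0.974 to 0.978. Compared with the other 48 h wells, replicate 4 was higher by a median of 1.11 log2 units for the tenth of genes with the lowest 24 h signal. It was lower by a median of 0.46 log2 units for the tenth with the highest (median difference -0.46). The albumin gene Alb, which marks hepatocytes, averaged 69853 ± 8898 at 48 h and 76335 ± 6097 at 24 h (SD, n = 5 each). Every comparison was therefore fitted with all arrays and again without replicate 4. In what follows rose and fell are used for genes that passed an adjusted p of 0.05 in both fits, in the same direction. The beta-actin probe sets at the 3′ and 5′ ends, whose ratio is a sign of RNA integrity, gave 2.61 ± 0.313 at 48 h and 2.86 ± 0.278 at 24 h (SD, n = 5 each), with p = 0.23 in a two-sided exact permutation test. Those of GAPDH gave 1.18 at 48 h and 1.19 at 24 h (exact permutation p = 0.54). The value after ± is the standard error for a log2 fold change and the SD for a mean signal.

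**Figure D1:**
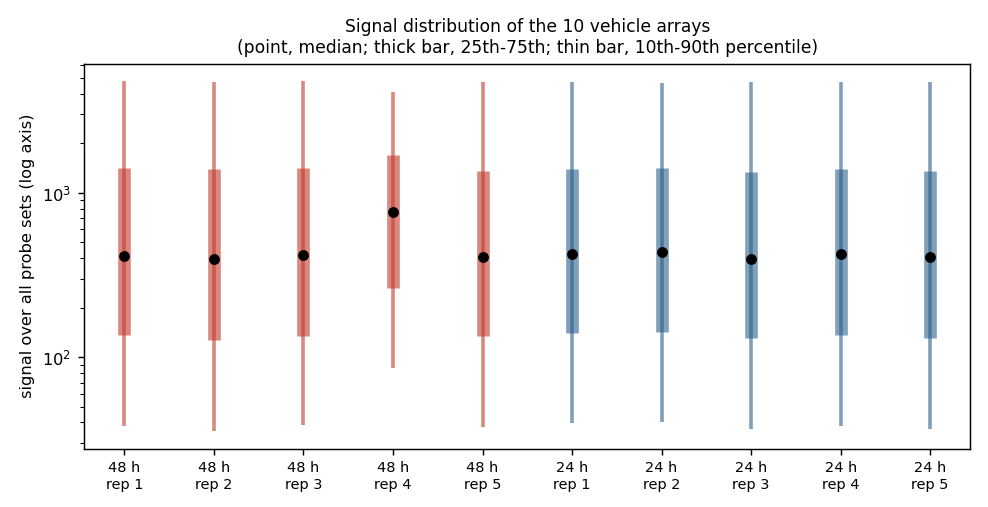
Signal distribution of each vehicle array on a log axis, 48 h arrays left of 24 h arrays, with the median as a point and bars from the 25th to the 75th and the 10th to the 90th percentile. Replicate 4 at 48 h has the highest median, 765, and the narrowest spread, while the other 9 medians lie between 396 and 439.

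Over all genes the drift was modest in size and ran both ways. With all arrays, 515 genes were higher at 48 h (4.46% of 11545) and 624 were lower (5.4%), together 9.87%. Without replicate 4 these counts were 697 (6.04%) and 536 (4.64%). In both fits 397 genes rose (3.44%) and 432 fell (3.74%), together 7.18%, and no gene passed in opposite directions. All 48 h wells lay above all 24 h wells for 327 genes (2.83%) and below them for 404 (3.5%), together 6.33%. These include 230 of the genes that rose and 298 of those that fell. The median log2 fold change of all genes was 0.02 with all arrays and -0.0027 without replicate 4. Each gene is represented by its probe set with the highest mean. Of 205 listed genes with further probe sets, 15 passed in both fits only on another one, and 17 of the 27 that passed had another that did not. Few changes were large: with all arrays 52 genes were at least 2-fold higher and 28 at least 2-fold lower among those that passed.

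Many drug-metabolising P450s fell. Of 25 measured members of the list, 12 fell and none rose. The median log2 fold change was -0.50 with all arrays and -0.31 without replicate 4. Cyp2c13, a male-specific steroid hydroxylase of rat liver, had signals of 2149.5, 2708, 2720.2, 3378 and 2827 in the 48 h wells, against 11775, 13576, 12218, 12544 and 14096 in the 24 h wells. All 48 h wells lay below all 24 h wells. Its log2 fold change was -2.22 ± 0.11 (adjusted p = 4.71e-16), and -2.30 (adjusted p = 2.86e-16) without replicate 4. Cyp3a2, also male-predominant in rats, read 1384, 1516, 1904, 2462 and 1885 in the 48 h wells, against 8511, 7443, 7175, 7086 and 9227 in the 24 h wells. Its log2 fold change was -2.12 ± 0.13 (adjusted p = 6.32e-14), and -2.23 (adjusted p = 9.48e-15) without replicate 4, again with no overlap.

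Cyp2c12, a female-predominant enzyme in rats, read 638, 552, 508, 204 and 587 in the 48 h wells, against 1828, 1829, 1669.6, 1376 and 1866 in the 24 h wells. It fell by 1.84 on the log2 scale with all arrays and by 1.55 without replicate 4, whose signal was the lowest of the group. Cyp2c7, another member of the Cyp2c family, averaged 1387 ± 199 at 48 h and 4415 ± 608 at 24 h (SD, n = 5 each) and had a log2 fold change of -1.66 ± 0.12 (adjusted p = 2.75e-12), and -1.59 (adjusted p = 1.41e-11) without replicate 4. Cyp1a2, which metabolises caffeine and aromatic amines, read 7856, 7509.8, 8078, 6874 and 8801 in the 48 h wells, against 16702, 17035, 16027, 16505 and 17004 in the 24 h wells. No 48 h well overlapped the 24 h wells, and its log2 fold change was -1.09 ± 0.08 (adjusted p = 8.99e-12), and -1.05 (adjusted p = 3.12e-11) without replicate 4. Cyp2e1, the ethanol-inducible form, averaged 5809 ± 1187 at 48 h and 9791 ± 991 at 24 h (SD, n = 5 each) and fell by 0.77, or by 0.66 without replicate 4. Cyp2c6v1, Cyp2c23, Cyp2b3, Cyp2d2, Cyp3a9 and Cyp3a18 fell too, with log2 fold changes between -0.87 and -0.51. Cyp2c11, the main male-specific P450 of rat liver, read 20228, 15940.4, 14201, 10320.3 and 17802 in the 48 h wells, against 17992, 17574, 22725, 17900.1 and 22825 in the 24 h wells. Its wells overlapped and it passed in neither fit, with a log2 fold change of -0.36 ± 0.15 (adjusted p = 0.125), and -0.22 (adjusted p = 0.375) without replicate 4. Cyp2 and Cyp3a genes have near-identical family members, so their probe sets may share signal. In these bulk wells a fall can reflect fewer cells that carry a transcript or less of it in each cell, and the arrays cannot tell them apart.

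Some secreted liver proteins fell, while the most abundant ones passed in neither fit. Serpina6, which encodes corticosteroid-binding globulin, had signals of 593, 709.6, 853, 989 and 838 in the 48 h wells, against 4515, 4171, 4356, 4289 and 4444 in the 24 h wells. Its log2 fold change was -2.45 ± 0.11 (adjusted p = 3.03e-17), and -2.53 (adjusted p = 1.52e-17) without replicate 4. With all arrays this was the most negative change among the genes that fell with no overlap between wells. Apoa2, an apolipoprotein of high-density lipoprotein, read 16537, 20972, 21347, 13522 and 21936 in the 48 h wells, against 42595, 44063, 46869, 39637 and 46725 in the 24 h wells. No well overlapped, and the log2 fold change was -1.24 ± 0.10 (adjusted p = 2.84e-11), and -1.13 (adjusted p = 5.33e-12) without replicate 4. Afm, the vitamin E-binding plasma protein afamin, averaged 3448 ± 225 at 48 h and 8735 ± 738 at 24 h (SD, n = 5 each) and had a log2 fold change of -1.34 ± 0.07 (adjusted p = 8.92e-16), and -1.32 (adjusted p = 4.92e-15) without replicate 4. Serpina3c and Serpina3l, members of a family of serine protease inhibitors, had log2 fold changes of -1.90 and -1.50 (means of 8289.7 and 9501 at 48 h, against 30121 and 26686 at 24 h). Spink1l was 6235 at 48 h, against 14316 at 24 h, with a log2 fold change of -1.21.

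The general list of secreted hepatocyte proteins had 5 of 17 measured genes that fell, namely Apoa2, Fetub, Vtn, Fga and Fgb, and none that rose. The most abundant members passed in neither fit: the log2 fold changes were -0.13 with all arrays and -0.06 without replicate 4 for Alb (albumin), -0.11 with all arrays and -0.02 for Ttr (transthyretin) and -0.13 with all arrays and -0.03 for Apoa1. The median of the list was -0.18 with all arrays and -0.09 without replicate 4. Complement and coagulation factors gave 11 of 25 measured genes that fell and none that rose in both fits, with a median of -0.29 and -0.25. C9, the last component of the membrane attack complex, read 4553, 4753, 5364, 5120.4 and 5078 in the 48 h wells, against 9173, 9209, 9262, 9087 and 10087 in the 24 h wells. The wells did not overlap and the change was -0.91 ± 0.07 (adjusted p = 2.27e-11), and -0.92 (adjusted p = 4.77e-11) without replicate 4 on the log2 scale. C8b, C8a and the antithrombin gene Serpinc1 fell by 0.58, 0.38 and 0.50 on the log2 scale, and the coagulation zymogen genes F10 and Plg by 0.36 and 0.42.

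Of 22 measured acute phase and inflammation genes, 7 fell and 1 rose. Hamp, which encodes the iron hormone hepcidin, averaged 5073 ± 888 at 48 h and 9272 ± 1220.3 at 24 h (SD, n = 5 each), with a log2 fold change of -0.88 ± 0.14 (adjusted p = 3.49e-05), and -0.87 (adjusted p = 9.0e-05) without replicate 4. Il6r, the receptor for interleukin 6, Cxcl1, a chemokine, and Fgl1 fell by 0.52, 0.70 and 0.48. Lbp, the lipopolysaccharide-binding protein, rose, with log2 fold changes of 0.39 with all arrays and 0.54 without replicate 4. Il1rn, the interleukin 1 receptor antagonist, was outside this list and had one of the largest falls. It read 429, 421, 433, 163 and 517 in the 48 h wells, against 1841, 2041, 2053, 1872 and 2378 in the 24 h wells, with a log2 fold change of -2.41 ± 0.27 (adjusted p = 6.95e-08), and -2.14 (adjusted p = 1.16e-07) without replicate 4.

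**Figure D2:**
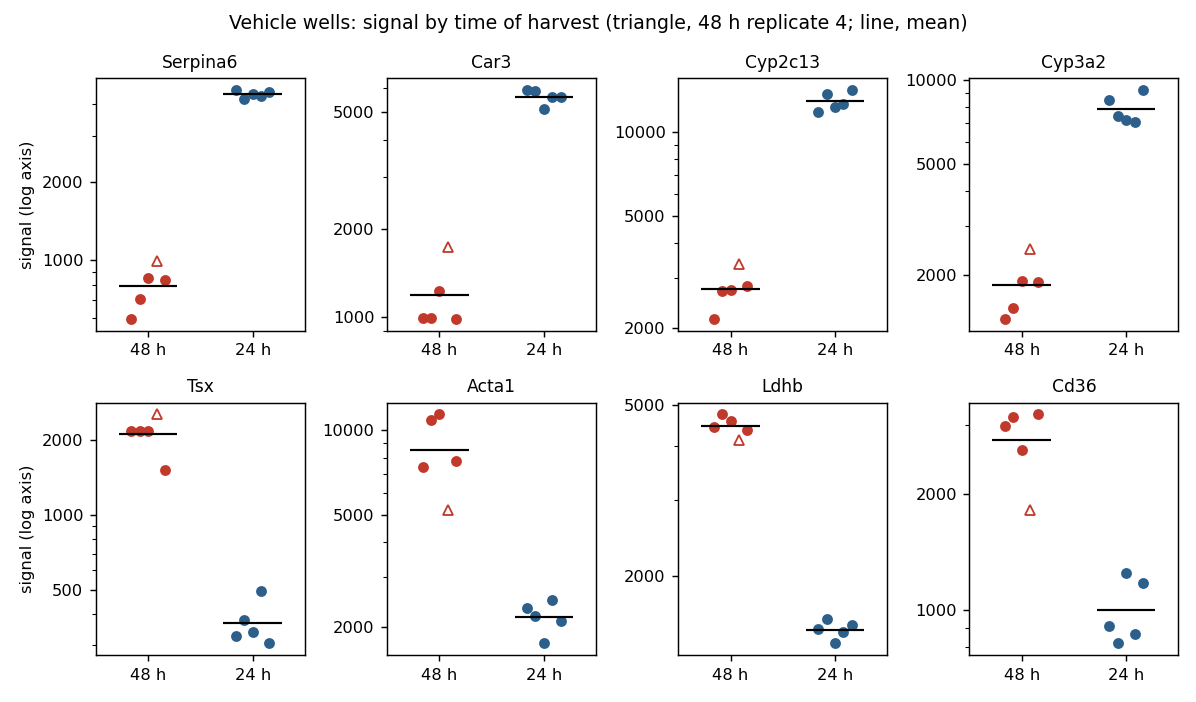
Signals of 8 genes in each vehicle well on log axes, 48 h wells left of 24 h wells, with a line at the mean of 5 wells and a triangle for 48 h replicate 4. Serpina6, Car3, Cyp2c13 and Cyp3a2 are lower in every 48 h well than in any 24 h well, and Tsx, Acta1, Ldhb and Cd36 are higher in every 48 h well.

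Regulators of the hepatocyte program moved by smaller amounts. Of 16 measured transcription factors, 6 fell (Hnf4a, Cebpb and the nuclear receptor genes Nr1h4, Nr1i2, Nr1i3 and Esrra) and none rose. Hnf4a, a master regulator of hepatocyte genes, read 8861, 8345, 8195, 6675 and 8399 in the 48 h wells, against 11974, 10381, 10663, 10404 and 10528 in the 24 h wells. Every 48 h well was below every 24 h well, with a log2 fold change of -0.42 ± 0.06 (adjusted p = 2.77e-05), and -0.35 (adjusted p = 3.21e-05) without replicate 4, though 2 further probe sets for Hnf4a with lower signals did not pass. Nr1h4 (the bile acid receptor FXR), Nr1i2 (PXR) and Nr1i3 (CAR), the last 2 being sensors that induce P450 genes, had log2 fold changes of -0.42, -0.27 and -0.32. Cebpa, Foxa2, Foxa3 and Prox1 passed in neither fit. Among 21 measured transporters, the bile acid uptake gene Slc10a1 (-0.68) and the export pumps Abcb11 (-0.29) and Abcg2 (-0.25) fell, and the organic anion transporter Slc22a8 rose (0.75).

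In the urea cycle and amino acid breakdown list, the count of falls depended on replicate 4: 14 of 34 measured genes were lower with all arrays, and 7 of them passed without it as well. These 7 were Hal (-1.06), Aass (-0.69), Hgd (-0.63), Haao (-0.46), Gpt (-0.43), Glud1 (-0.38) and Nags (-0.36), most of them enzymes that break down histidine, lysine, tyrosine, tryptophan, alanine and glutamate. None rose. The carbamoyl phosphate synthetase gene Cps1, the first step of the urea cycle, was at -0.14 with all arrays and -0.07 without replicate 4 and passed in neither fit. ER chaperones and stress genes gave 9 of 21 lower genes with all arrays and 5 in both fits, and after median centring 1 of 21 was lower with all arrays and 2 without replicate 4. Sdf2l1, which assists protein folding, averaged 2802 ± 186 at 48 h and 4110.1 ± 277 at 24 h (SD, n = 5 each). Its log2 fold change was -0.55 ± 0.10 (adjusted p = 3.35e-04), and -0.54 (adjusted p = 7.47e-04) without replicate 4.

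Outside the lists, Car3 had a fall like that of the P450s. It encodes carbonic anhydrase 3, an abundant enzyme of male rat liver. It read 992, 995, 1227, 1732 and 985 in the 48 h wells, against 5931, 5857, 5104, 5618 and 5603 in the 24 h wells, with a log2 fold change of -2.26 ± 0.13 (adjusted p = 1.51e-14), and -2.41 (adjusted p = 2.86e-16) without replicate 4. A second probe set for Car3 gave a log2 fold change of -2.32 (adjusted p = 3.67e-06). Gstp3, a glutathione transferase gene, averaged 290.4 ± 177 at 48 h and 1352 ± 261 at 24 h (SD, n = 5 each), with a log2 fold change of -2.34 ± 0.34 (adjusted p = 1.06e-05), and -2.38 (adjusted p = 1.87e-05) without replicate 4. Among the listed conjugation enzymes, Gstk1 (-0.61) and the estrogen sulfotransferase Sult1e1 (-1.03) fell, while Gsta3 (0.34) and Gstm7 (0.44) rose, out of 23 measured.

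**Figure D3:**
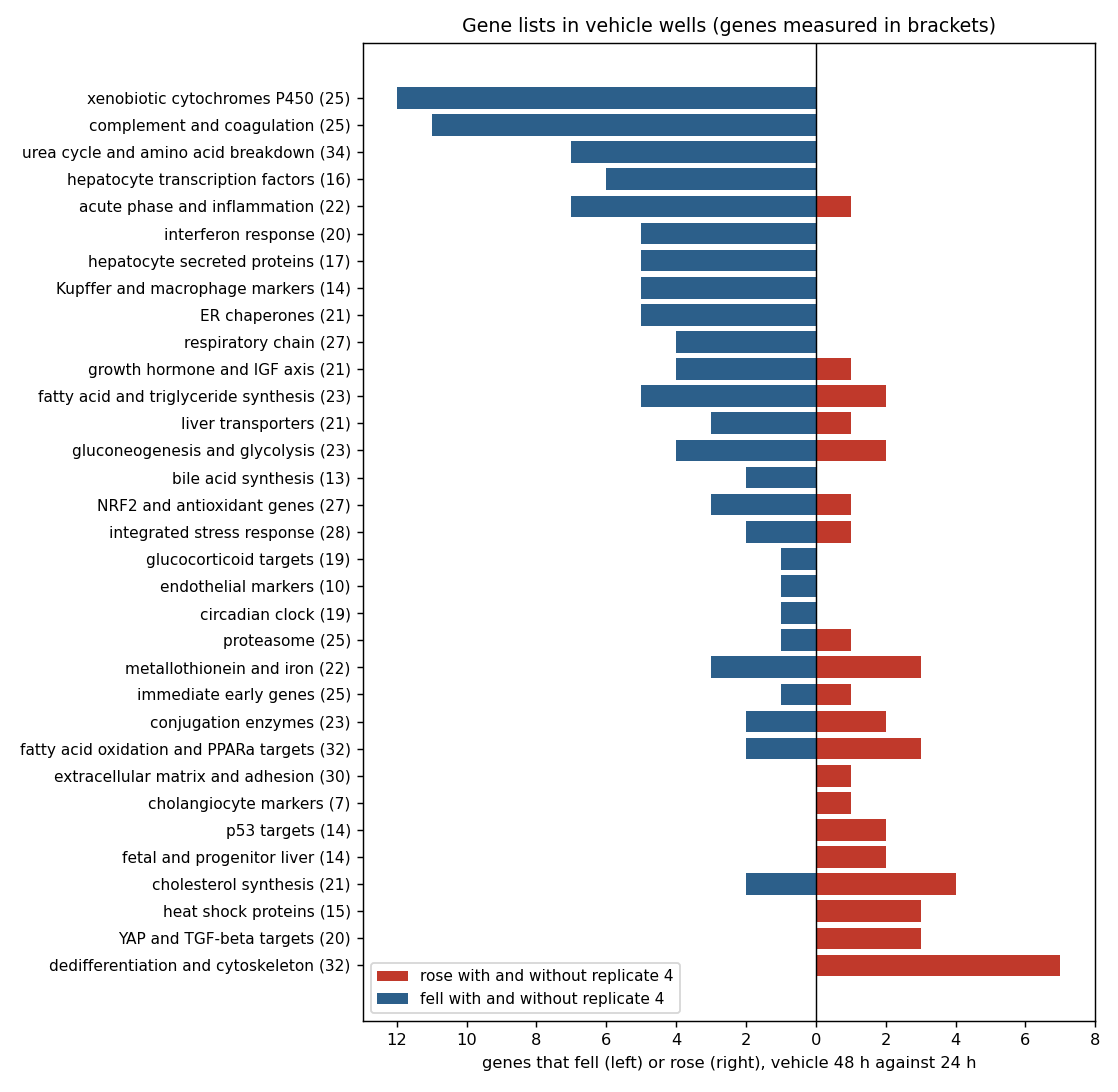
Number of genes in each list that fell (bars to the left) or rose (bars to the right) in vehicle wells at 48 h against 24 h, both with and without replicate 4, with the number of measured genes in brackets. Lists with no such gene are left out. The P450 list has 12 falls, complement and coagulation 11, and the dedifferentiation and cytoskeleton list 7 rises.

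Several genes of the cytoskeleton and of cell spreading rose. Of 32 measured members of the dedifferentiation and cytoskeleton list, 7 rose and none fell in both fits, and the median was 0.13 with all arrays, 0.23 without replicate 4 and -0.01 after median centring of all arrays, which moved the median of all genes to -0.13. The count of higher genes in this list was 8 with all arrays, 9 without replicate 4, 13 after quantile normalization, and 1 after median centring of all arrays. S100a11, a calcium-binding protein, read 58264, 58656, 56319, 38764 and 60405 in the 48 h wells, against 33459, 32606, 40652, 34394 and 34282 in the 24 h wells. Replicate 4 was the 1 well at 48 h inside the range of the 24 h wells, and the log2 fold change was 0.62 ± 0.09 (adjusted p = 7.57e-06), and 0.74 (adjusted p = 4.31e-10) without replicate 4. Anxa3, a membrane-binding annexin, read 15222, 17673, 17334, 13770.4 and 14767 in the 48 h wells, against 8985, 8768, 9776, 9661 and 10649.9 in the 24 h wells, with no overlap and a log2 fold change of 0.72 ± 0.09 (adjusted p = 5.13e-07), and 0.76 (adjusted p = 1.78e-07) without replicate 4. Cnn2, an actin-binding calponin, averaged 6947 ± 1058 at 48 h and 4591 ± 359 at 24 h (SD, n = 5 each), with a log2 fold change of 0.59 ± 0.11 (adjusted p = 2.62e-04), and 0.65 (adjusted p = 7.94e-05) without replicate 4. Tagln2, Flna, Actn1 and Tpm1, all actin-associated, rose by log2 fold changes of 0.53, 0.47, 0.37 and 0.23. A further probe set for Actn1, with lower signals, did not pass. For Anxa3 and for Tpm1, 1 further probe set each passed in both fits (0.42 and 0.36 with all arrays), and the others did not. The keratin genes of hepatocytes passed in neither fit, with log2 fold changes of -0.06 for Krt8 and -0.12 for Krt18, nor did Vim (0.23).

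Acta1, the skeletal muscle actin gene, was not on this list and had one of the largest rises. It read 7390.2, 10918, 11427, 5196 and 7764 in the 48 h wells, against 2331, 2186, 1741, 2493 and 2092 in the 24 h wells, with a log2 fold change of 1.92 ± 0.16 (adjusted p = 2.08e-10), and 2.09 (adjusted p = 8.66e-12) without replicate 4. Every 48 h well was at least as high as 5196 and every 24 h well at most 2493. Serum response factor controls many actin and actin-binding genes through a motif called the CArG box. The promoters of Acta1 (chr19:68784145-68784444, minus strand) and Cnn2 (chr7:10370263-10370562, minus strand) each held a match, as did that of Actg1, which did not pass (-0.12 with all arrays and -0.03 without replicate 4). They are shown because both genes rose, 5′ to 3′ from 250 bases before to 50 after the start, with the CArG box in capitals (RefSeq, GRCr8).
Acta1: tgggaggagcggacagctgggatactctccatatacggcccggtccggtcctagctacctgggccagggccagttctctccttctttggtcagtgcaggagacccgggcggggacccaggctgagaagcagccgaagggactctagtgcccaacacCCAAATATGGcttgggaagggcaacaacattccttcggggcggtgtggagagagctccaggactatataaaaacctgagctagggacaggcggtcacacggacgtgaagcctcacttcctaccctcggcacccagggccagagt
Cnn2: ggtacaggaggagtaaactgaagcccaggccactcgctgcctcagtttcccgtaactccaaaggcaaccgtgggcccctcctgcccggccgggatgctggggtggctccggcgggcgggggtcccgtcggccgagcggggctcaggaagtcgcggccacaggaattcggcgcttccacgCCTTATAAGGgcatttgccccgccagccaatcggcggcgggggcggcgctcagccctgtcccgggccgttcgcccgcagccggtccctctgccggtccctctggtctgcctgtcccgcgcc
The match began 94 bases before the start in Acta1 and 71 in Cnn2. Of all 33469 promoters in the table, 548 (1.64%) held a CArG box. Of the 29 listed cytoskeleton genes with a promoter, 2 held one. A match describes the letters and is not a measured binding site.

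Several genes of growth factor signalling and of stress rose as well. Tgfb2, which encodes a secreted transforming growth factor, read 676, 978, 969, 220.4 and 724 in the 48 h wells, against 91.4, 77, 77.1, 102 and 281 in the 24 h wells. Replicate 4 was far below the other 48 h wells and under the highest 24 h well, and the log2 fold change was 2.37 ± 0.35 (adjusted p = 1.59e-05), and 2.73 (adjusted p = 1.90e-07) without replicate 4. All 24 h wells of Tgfb2 lay under the filter signal of 281.361, so that its fold is less certain. With 1 or 64 added to the signal in place of 16, its log2 fold change was 2.52 or 2.00. A second probe set for Tgfb2 did not pass (log2 fold change -0.28). Ccn2, a matrix protein induced by YAP and transforming growth factor, read 18484, 18810.5, 18711, 14532 and 17637 in the 48 h wells, against 13342, 11089.5, 12113, 11216 and 11916 in the 24 h wells, with no overlap and a log2 fold change of 0.56 ± 0.10 (adjusted p = 1.86e-04), and 0.63 (adjusted p = 2.71e-05) without replicate 4. Of 20 measured YAP and TGF-beta targets, 3 rose and none fell in both fits. Cryab, a small heat shock protein, read 14636, 14198, 14928, 8993 and 13813 in the 48 h wells, against 5036, 4815, 5902, 6327 and 5189 in the 24 h wells. Replicate 4 was again the lowest 48 h well, still above all 24 h wells, and the log2 fold change was 1.27 ± 0.12 (adjusted p = 2.80e-09), and 1.40 (adjusted p = 1.77e-11) without replicate 4. Dnajb4 (0.57) and Hspa1a (0.44) rose with it among 15 measured heat shock genes. Sox4, a transcription factor of fetal and regenerating tissue, averaged 989 ± 82.8 at 48 h and 439.6 ± 124 at 24 h (SD, n = 5 each), with a log2 fold change of 1.18 ± 0.19 (adjusted p = 4.16e-05), and 1.22 (adjusted p = 4.01e-05) without replicate 4. The other 3 probe sets for Sox4 did not pass. Epcam, a surface marker of bile duct and progenitor cells, rose by 0.37, or 0.49 without replicate 4, as the only one of 7 measured bile duct markers. The summed signal of those markers was 13862 to 16961 in 48 h wells, against 11607 to 13661 in 24 h wells. This sum adds linear signals, so the markers with the highest signals weigh most.

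Lipid genes moved in both directions. Scd2, a stearoyl-CoA desaturase that makes monounsaturated fatty acids, read 1532, 1525, 1428, 1558 and 1304 in the 48 h wells, against 479, 482, 463, 675 and 366 in the 24 h wells. The wells did not overlap and the log2 fold change was 1.57 ± 0.13 (adjusted p = 5.54e-11), and 1.55 (adjusted p = 2.66e-10) without replicate 4. The other 2 probe sets for Scd2, with lower signals, did not pass. Fads1, the delta-5 desaturase of polyunsaturated fatty acids, averaged 1858 ± 439 at 48 h and 882 ± 84.4 at 24 h (SD, n = 5 each), with a log2 fold change of 1.03 ± 0.13 (adjusted p = 5.58e-07), and 1.12 (adjusted p = 1.38e-07) without replicate 4. Scd, the main hepatic desaturase gene, fell (-0.52), as did Acaca (-0.39), Mttp (-0.47), Thrsp (-0.31) and Lpin1 (-0.30), so that 2 of 23 measured genes of fatty acid and triglyceride synthesis rose and 5 fell. Cd36, a fatty acid uptake receptor, read 2993, 3148, 2596, 1818 and 3207 in the 48 h wells, against 908, 819, 1244, 869 and 1171 in the 24 h wells, with a log2 fold change of 1.43 ± 0.13 (adjusted p = 6.29e-10), and 1.58 (adjusted p = 8.03e-12) without replicate 4. Vnn1, a pantetheinase induced by PPARα, averaged 5615 ± 861 at 48 h and 3030.1 ± 456 at 24 h (SD, n = 5 each), with a log2 fold change of 0.88 ± 0.09 (adjusted p = 1.35e-08), and 0.99 (adjusted p = 1.26e-11) without replicate 4, and Cyp4a1, a fatty acid hydroxylase, rose by 0.73. Fabp1, the liver fatty acid-binding protein, went the other way. It read 7547, 6872, 6883, 5295 and 8131 in the 48 h wells, against 11969, 10744, 11850.4, 10364 and 11715 in the 24 h wells, with no overlap and a log2 fold change of -0.72 ± 0.09 (adjusted p = 3.49e-07), and -0.62 (adjusted p = 1.78e-07) without replicate 4. In the list of fatty acid oxidation and PPARα targets 3 of 32 measured genes rose and 2 fell in both fits, and without replicate 4 alone 9 were higher. Over all genes 3.44% rose and 3.74% fell in both fits. On further probe sets with lower signals, Acaa2 (-0.67), Bdh1 (-0.75) and Plin2 (-0.47) passed as lower in both fits.

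Cholesterol synthesis genes gave a count of rises that moved with replicate 4 and with the scaling. With all arrays 4 of 21 measured genes passed as higher (Msmo1, Dhcr7, Idi1 and Fdft1), and without replicate 4 these and 6 more did (Sqle, Cyp51, Mvd, Nsdhl, Fdps and Sc5d). Msmo1, a sterol demethylating oxidase, read 18819, 18765, 18818, 13805 and 20743 in the 48 h wells, against 12908, 12999.9, 12392, 15365 and 14551 in the 24 h wells. Replicate 4 was the lowest 48 h well, inside the 24 h range, and the log2 fold change was 0.41 ± 0.09 (adjusted p = 0.0016), and 0.50 (adjusted p = 8.41e-06) without replicate 4. Quantile normalization of all arrays gave 8 higher genes and median centring gave none. After median centring the median of the list was -0.02, against 0.12 as reported and 0.19 without replicate 4. Insig2, which retains the sterol sensor in the endoplasmic reticulum, and Tm7sf2 fell (-0.58 and -0.46). The sterol regulatory element, searched as TCACNCCAC on both strands, was in 374 of 33469 promoters (1.12%) and in none of the 18 listed genes of this pathway that have a promoter in the table.

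The remaining large rises belonged to no single list. Tsx, named for its expression in testis and linked to the X chromosome, read 2183, 2182, 2182, 2541 and 1521 in the 48 h wells, against 328, 379, 338, 494 and 305 in the 24 h wells, with a log2 fold change of 2.47 ± 0.19 (adjusted p = 2.27e-11), and 2.40 (adjusted p = 1.15e-10) without replicate 4. With all arrays it had the largest log2 fold change among the genes that rose with no overlap between wells. Ldhb, the heart-type subunit of lactate dehydrogenase, read 4449, 4752, 4591, 4146 and 4366 in the 48 h wells, against 1505, 1585, 1392, 1479 and 1533 in the 24 h wells, with a log2 fold change of 1.56 ± 0.08 (adjusted p = 1.48e-15), and 1.59 (adjusted p = 4.92e-15) without replicate 4, and again no overlap. Pfkp, the platelet-type phosphofructokinase of glycolysis, averaged 6655 ± 781 at 48 h and 3771 ± 635 at 24 h (SD, n = 5 each), with a log2 fold change of 0.83 ± 0.11 (adjusted p = 2.67e-06), and 0.89 (adjusted p = 9.28e-07) without replicate 4. Dpp7, a lysosomal peptidase, had a log2 fold change of 1.42 (means 2314 at 48 h and 901 at 24 h). Map1b and Mapt, which bind microtubules, averaged 1501 and 679 at 48 h, against 579 and 209 at 24 h, and Sncb, beta-synuclein, averaged 396 against 149.7. Krtcap3, Elmod1, Prr15l, Cttnbp2, Pdzk1ip1 and Wls were also among the 15 largest rises with no overlap, with log2 fold changes between 1.36 and 1.90. Their means at 24 h were 33.3 to 306 units, about or under the filter signal of 281, so that their folds are less certain. The 24 h means of Mapt and Sncb were under it too. With 1 or 64 added to the signal in place of 16, the log2 fold change of Krtcap3 was 2.29 or 1.28. That of Prr15l moved less (1.56 or 1.37). In Mapt replicate 4 read 1696, far above the other 48 h wells, and without it the log2 fold change was 1.000. The second probe sets for Mapt and Sncb did not pass.

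Several markers of liver macrophages fell. Of 14 measured Kupffer and macrophage markers, 5 fell (Cd68, Cd14, C1qa, C1qb and Cd5l) and none rose, with a median of -0.43 in both fits. C1qb, a chain of the first complement component, read 93.3, 361, 547, 118 and 387 in the 48 h wells, against 489.7, 847, 543, 778 and 1198 in the 24 h wells. The highest 48 h well, at 547, lay above the 2 lowest 24 h wells, and the log2 fold change was -1.51 ± 0.35 (adjusted p = 0.00378), and -1.27 (adjusted p = 0.0125) without replicate 4. Cd5l, a secreted macrophage protein, read 265, 223, 397, 533 and 241 in the 48 h wells, against 590.4, 599, 549.8, 580.02 and 726 in the 24 h wells, with no overlap and a log2 fold change of -0.92 ± 0.19 (adjusted p = 0.0016), and -1.10 (adjusted p = 2.01e-05) without replicate 4. Cd68, a lysosomal protein of macrophages, averaged 1232 ± 236 at 48 h and 1876 ± 308 at 24 h (SD, n = 5 each), with a log2 fold change of -0.61 ± 0.15 (adjusted p = 0.00761), and -0.69 (adjusted p = 0.00238) without replicate 4. Clec4f, a lectin of rodent Kupffer cells, overlapped and passed in neither fit: it read 557, 307, 641, 971 and 655 in the 48 h wells, against 728, 1100.1, 842, 527 and 684 in the 24 h wells. The summed signal of the 14 markers was 28197 to 30601 in 48 h wells, against 33572 to 38517 in 24 h wells. This sum adds linear signals, so the markers with the highest signals weigh most, and it does not speak for each marker. Adgre1 and Ptprc were below the filter. Cd74, the invariant chain of MHC class II, averaged 134 ± 68.7 at 48 h and 339.7 ± 63.3 at 24 h (SD, n = 5 each), with a log2 fold change of -1.33 ± 0.30 (adjusted p = 0.00292), and -1.30 (adjusted p = 0.00328) without replicate 4. Of 10 measured endothelial markers, Fcgr2b fell (-0.45 with all arrays and -0.42 without replicate 4), and Lyve1 was lower only without replicate 4. The median of these 10 was -0.12 with all arrays and -0.23 without replicate 4. Their summed signal averaged 6147 at 48 h with all arrays and 5331 without replicate 4, which read 9412, against 6628 at 24 h. None of 10 stellate and fibroblast or 5 lymphocyte and red cell markers passed in both fits.

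Some genes induced by interferon fell. Of 20 measured members 5 fell (Isg15, Irf7, Mx2, Oas1a and Usp18), none rose and 15 did not pass in both fits. The median of the list was -0.22 with all arrays and -0.19 without replicate 4. Isg15, a ubiquitin-like modifier, read 3417, 1817, 2810, 1298 and 2502 in the 48 h wells, against 5661, 5399, 5522, 4695 and 4914 in the 24 h wells. The wells did not overlap, and the log2 fold change was -1.21 ± 0.17 (adjusted p = 6.79e-06), and -1.02 (adjusted p = 1.29e-05) without replicate 4. Irf7, a transcription factor that amplifies the interferon response, read 3751, 2555, 3484, 2871 and 2494 in the 48 h wells, against 5691, 5039.5, 4940.4, 5076 and 3886 in the 24 h wells, with no overlap and a log2 fold change of -0.71 ± 0.11 (adjusted p = 2.08e-05), and -0.69 (adjusted p = 5.95e-05) without replicate 4. Mx2 and Oas1a, antiviral effectors, overlapped between times. Oas1a read 1539.97, 744, 962, 1128 and 675 in the 48 h wells, against 2424, 1376, 1935, 1289 and 1425 in the 24 h wells, with a log2 fold change of -0.75 ± 0.20 (adjusted p = 0.0119), and -0.81 (adjusted p = 0.00885) without replicate 4. Mx2 averaged 1418 ± 611 at 48 h and 2409.6 ± 711 at 24 h (SD, n = 5 each), with a log2 fold change of -0.83 ± 0.26 (adjusted p = 0.0354), and -0.999 (adjusted p = 0.00901) without replicate 4, and a second probe set for Mx2 did not pass. The most abundant member, B2m, passed in neither fit (-0.14 with all arrays and -0.06 without replicate 4) on the probe set with the highest signal. A second probe set for B2m passed in both, at -0.48 with all arrays (adjusted p = 2.89e-05) and -0.38 without replicate 4 (adjusted p = 7.66e-06). Irf9 was lower only without replicate 4 on its probe set with the highest signal. A second probe set for Irf9 passed in both fits (-0.57 with all arrays and -0.56 without replicate 4). Whether the lower macrophage signal has a part in these falls was not tested.

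Interferon-induced genes are known to carry the interferon-stimulated response element (ISRE) in their promoters. It was searched on both strands as GAAA, any 2 bases and again GAAA. The letters were present in 10 of the 18 listed interferon genes that have a promoter in the RefSeq table, and in 1312 of all 33469 promoters (3.92%). Isg15, Mx2 and Usp18, which also fell, have no promoter in that table and were not searched. Irf7 (chr1:205799974-205800273, minus strand) and Oas1a (chr12:41330216-41330515, plus strand) are shown as genes that fell and hold a match, 5′ to 3′ with the ISRE in capitals (GRCr8).
Irf7: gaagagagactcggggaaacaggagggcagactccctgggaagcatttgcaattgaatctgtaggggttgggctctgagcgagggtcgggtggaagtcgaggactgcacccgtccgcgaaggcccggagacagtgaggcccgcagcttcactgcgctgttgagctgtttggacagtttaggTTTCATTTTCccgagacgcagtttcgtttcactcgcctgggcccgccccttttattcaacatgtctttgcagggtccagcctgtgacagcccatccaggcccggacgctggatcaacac
Oas1a: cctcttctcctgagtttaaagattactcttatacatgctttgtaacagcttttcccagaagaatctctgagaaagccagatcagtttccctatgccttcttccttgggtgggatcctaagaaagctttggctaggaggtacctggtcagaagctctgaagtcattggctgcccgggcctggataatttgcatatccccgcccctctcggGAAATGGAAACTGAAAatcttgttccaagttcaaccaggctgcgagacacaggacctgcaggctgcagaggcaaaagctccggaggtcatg
The Irf7 match lies on the opposite strand and begins 69 bases before the start. Oas1a holds 2 overlapping matches, from 41 and 35 bases before it. The other genes with a match were Ifit3, Rsad2, Ifi27, Cxcl10, Psmb8, Tap1, B2m and Gbp2. Gbp2 was below the filter and was not tested. None of the others passed in both fits on its probe set with the highest signal.

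**Figure D4:**
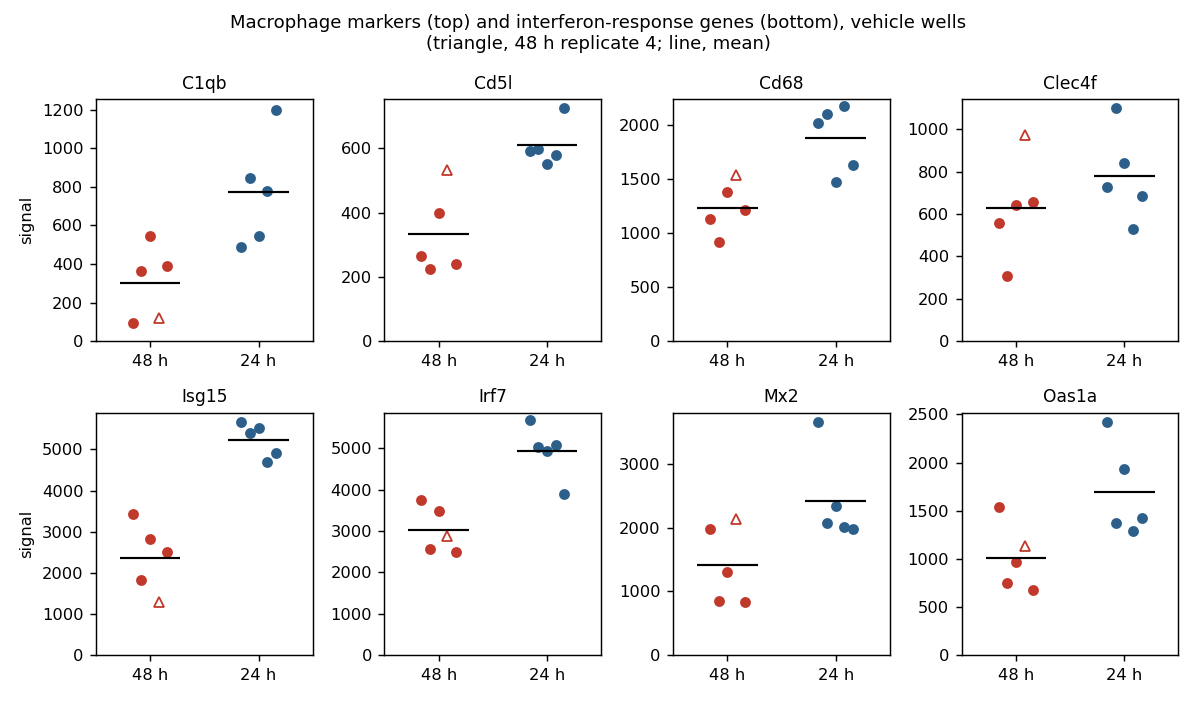
Signals in each vehicle well of 4 macrophage markers (top row) and 4 interferon-induced genes (bottom row), 48 h wells left of 24 h wells, axes from 0, with a line at the mean of 5 wells and a triangle for 48 h replicate 4. Cd5l, Isg15 and Irf7 are lower in every 48 h well than in any 24 h well, whereas C1qb, Cd68, Clec4f, Mx2 and Oas1a overlap.

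Other groups gave few calls or none. None of 28 measured cell cycle and replication genes passed in either fit on the probe set with the highest signal, and 8 more, Mki67 and Cdk1 among them, were below the filter. Weaker probe sets did pass for Ccnd1, the cyclin D1 gene (log2 fold change 1.96, adjusted p = 1.79e-04, with means of 395 at 48 h and 116 at 24 h), and, only without replicate 4, for the kinase gene Cdk2 (-0.90, adjusted p = 5.23e-05). None of 16 measured ribosome and translation genes passed in either fit. The 10 most abundant genes, which include Gc, the mitochondrial genes COX1 and COX2, Fgg, Apoc3 and Hp, had log2 fold changes of -0.18 to -0.10 with all arrays, and none passed. In the tenth of genes with the highest 24 h signal, replicate 4 lay at a median of -0.46 against the other 48 h wells. A second probe set for Gc, the vitamin D-binding protein gene, passed in both fits (-0.52 with all arrays, adjusted p = 2.90e-05, and -0.51 without replicate 4). Over all genes 2647 had an unadjusted p under 0.05 with all arrays. Of 19 measured circadian clock genes, Clock alone fell on the probe set with the highest signal (-0.30 with all arrays and -0.26 without replicate 4), and its second probe set did not pass (0.29). A weaker probe set for Tef, a clock-controlled transcription factor, passed in both fits (-0.45 with all arrays and -0.35 without replicate 4).

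A further 300 genes passed as higher and 104 as lower only without replicate 4, and 118 as higher and 192 as lower only with it. The 5 most positive of the first kind were Tmem14a (2.01), Acot1 (1.52), Eri3 (1.15), Pkp3 (1.06) and Ppip5k1 (0.99). The 5 most negative were Slfn4 (-1.90), Morn1 (-1.57), Kcne3 (-1.45), Rph3a (-1.43) and Tmem91 (-1.39). Replicate 4 was the lowest 48 h well for the first 5 and the highest for the other 5, and with it none passed.

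Part of the drift was also seen in wells that received the compound, which share no array with the vehicle wells. In 8 µM wells 835 genes were higher at 48 h than at 24 h (7.23%) and 711 lower (6.16%), and in 200 µM wells 721 (6.25%) and 561 (4.86%), with all arrays. Of the 515 genes higher in vehicle wells, 223 (43.3%) were also higher in 8 µM wells and 216 (41.9%) in 200 µM wells. Of the 624 lower in vehicle wells, 282 (45.2%) and 241 (38.6%) were lower. In turn these were 26.7% and 30% of the treated rises and 39.7% and 43% of the treated falls. In all 3 pairs of times 174 genes were higher and 208 lower. Without replicate 4, these were 288 and 230, and the treated wells gave 1150 higher and 1073 lower genes at 8 µM and 1028 and 901 at 200 µM. Serpina6 had log2 fold changes of -2.27 in 8 µM wells and -2.42 in 200 µM wells, against -2.45 in vehicle wells. For Cyp2c13 these were -2.27 and -2.24, against -2.22, and for Acta1 2.15 and 1.89, against 1.92. Across the 11545 genes, which are not independent, the Pearson correlation of vehicle drift was 0.365 with drift at 8 µM and 0.371 with drift at 200 µM. The same fit estimated all of them.

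**Figure D5:**
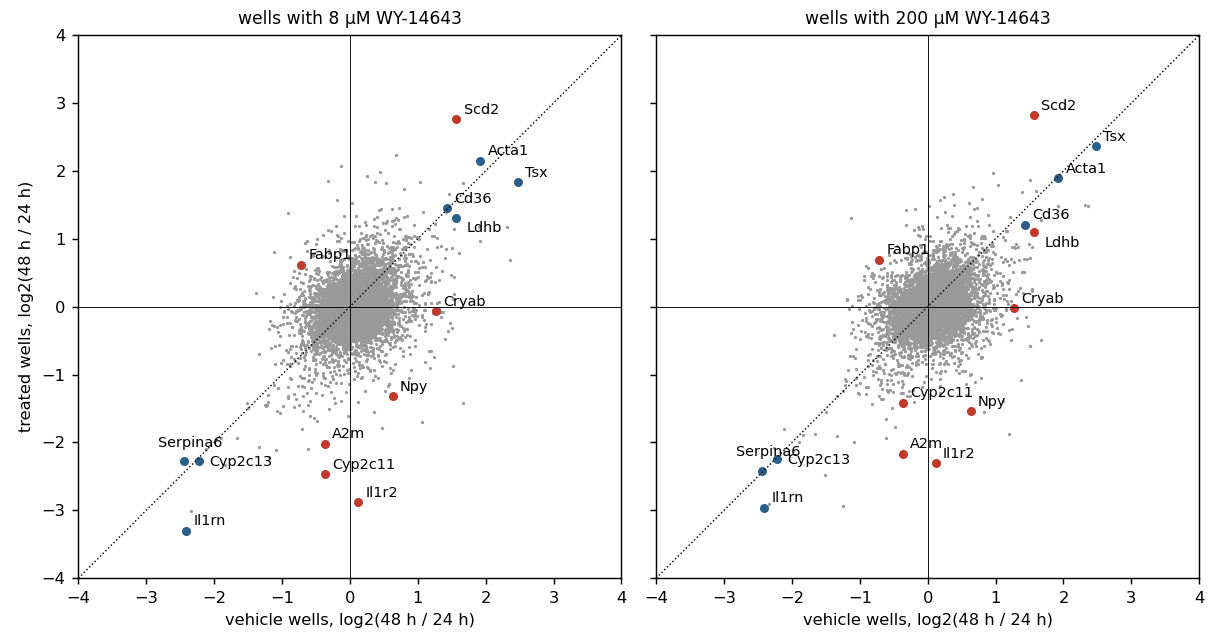
Log2 fold change from 24 h to 48 h of each of 11545 genes in treated wells (vertical axis; 8 µM left, 200 µM right) against that in vehicle wells (horizontal axis), with a dotted line of equal change. Named genes in red have a difference of drifts with adjusted p under 0.05, those in blue do not. Serpina6, Cyp2c13 and Acta1 lie near the line, while Npy, A2m, Il1r2 and Cyp2c11 lie below it and Fabp1 and Scd2 above it.

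A smaller set drifted differently. The drift differed between 8 µM and vehicle wells for 335 genes (2.9%) and between 200 µM and vehicle wells for 278 (2.41%), and without replicate 4 for 582 and 488. The difference was positive for 193 (1.67%) and negative for 142 (1.23%) at 8 µM, and positive for 150 (1.3%) and negative for 128 (1.11%) at 200 µM. Both comparisons use the same vehicle arrays. Fabp1, lower at 48 h in vehicle wells (-0.72), was higher in treated wells (0.62 at 8 µM and 0.69 at 200 µM). The difference of drifts was 1.33 ± 0.12 (adjusted p = 7.13e-09) at 8 µM and 1.41 ± 0.12 (adjusted p = 2.27e-09) at 200 µM. Npy, the neuropeptide Y gene, rose in vehicle wells, where it read 13179.9, 13685, 15849, 13304 and 15152 in the 48 h wells, against 8693, 9158, 8585, 10196 and 9241 in the 24 h wells. In 200 µM wells it read 1125, 1434, 1526, 1463 and 1189 at 48 h, against 3879, 4133, 3953, 3479 and 4188 at 24 h. Its difference of drifts was -1.95 ± 0.12 (adjusted p = 2.27e-13) and -2.17 ± 0.12 (adjusted p = 1.07e-14). A2m, the acute phase protein alpha-2-macroglobulin, was -0.37 in vehicle wells, where it passed with all arrays and missed the threshold without replicate 4 (adjusted p = 0.0778). It was -2.02 and -2.17 in treated wells. Il1r2, a decoy receptor for interleukin 1, passed in neither fit in vehicle wells (0.12 with all arrays and 0.27 without replicate 4) and was -2.88 and -2.30 in treated wells.

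Cyp2c11, which did not pass in vehicle wells, was -2.47 in 8 µM wells and -1.41 in 200 µM wells, with differences of -2.11 ± 0.21 (adjusted p = 3.34e-08) and -1.05 ± 0.21 (adjusted p = 0.00284). Cryab rose in vehicle wells and was -0.06 and -0.02 in treated wells. Sdf2l1 fell in vehicle and 8 µM wells (-0.63) and was higher at 48 h in 200 µM wells (0.64), with a difference of 1.19 ± 0.14 (adjusted p = 1.92e-06) at 200 µM. Slc30a10, a manganese exporter, fell in vehicle wells (-0.67) and was 0.08 and 0.33 in treated wells. The lipid droplet gene Abhd5 and the glycerol channel gene Aqp7 drifted upward more in treated wells (1.19 and 1.43 at 8 µM, against 0.08 and 0.46 in vehicle wells). A second probe set for Abhd5 had a log2 fold change of -0.48 in vehicle wells (adjusted p = 0.022). The differences of Fabp1, Npy, A2m, Il1r2, Cyp2c11, Cryab, Sdf2l1 at 200 µM, Slc30a10, Abhd5 and Aqp7 also passed without replicate 4.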

How the data were processed

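The 10 vehicle arrays were compared as 48 h minus 24 h, and the 20 arrays of treated wells were used for the shared estimate of spread and for the differences of drift. The deposited values are linear array intensities, 1 signal per probe set, made by the authors with MAS5, per the submitters' processing notes, and the values show a shared trimmed mean on all arrays. The version is not given in the sources used here. Signals were used as log2(signal + 16). Of 31099 probe sets, 20832 named exactly 1 gene, and 15629 of these passed the filter on low signals. The probe set with the highest mean stood for a gene (3079 genes had several), and genes had to exceed 281, the 40th percentile over all arrays, in at least 5 of 30 arrays, which left 11545. limma 3.58.1 in R 4.3.3 fitted 1 mean per group over all 30 arrays (lmFit, contrasts, eBayes with a trend), with Benjamini-Hochberg adjustment over all genes and a threshold of 0.05. The same fit was repeated without 48 h vehicle replicate 4. The steps were tested on simulated data. No 2 arrays held identical values, and the highest correlation between arrays was 0.981. The number of arrays limits the precision: the median standard error of a log2 fold change was 0.124. Replicate numbers were given in accession order and pair nothing.

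Gene lists and the wells compared were chosen with earlier results of these data known. Named genes follow a rule: the 15 largest rises and falls that passed both fits with no overlap between wells, up to 4 leading members of each list, the 5 largest in each direction that passed only without replicate 4, the 5 leading differences of drift in each direction, and the 10 most abundant genes. Further members of lists are named to account for counts, and Acta1 and Cnn2 were chosen for their promoters after their values were seen. Alternatives were quantile normalization, median centring, other pseudocounts, filters and probe set rules, array weights, fits of fewer groups, a replicate block and leaving out each array. Promoters are RefSeq sequences on GRCr8.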

Additional observations from a re-analysis of the deposited data

Results flagged for a closer look

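A pattern of 3 array measures set 48 h vehicle replicate 4 apart from its group: a median signal of 765, 73.9% of probe sets above the filter and a median correlation of 0.896 with its group. Among 116 groups of 5 wells of the named genes, 19 held a well far from the other 4, where chance gives about 1 in 20. Of these wells 12 were 48 h replicate 4. That array read 46053 for A2m, 14532 for Ccn2, 8993 for Cryab, 204 for Cyp2c12, 6675 for Hnf4a and 3260.33 for Il1r2. It read 163 for Il1rn, 13805 for Msmo1, 38764 for S100a11, 220.4 for Tgfb2, 4094 for Vnn1 and 608 for Wls. The other 7 wells were at 24 h. Replicate 1 read 11974 for Hnf4a and 3653 for Mx2, replicate 2 read 78.1 for Elmod1 and replicate 3 read 40652 for S100a11. Replicate 5 read 10087 for C9, 110 for Map1b and 281 for Tgfb2.

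The drift differed between treated and vehicle wells for 27 named genes, by a limma test of the difference of log2 fold changes. Those with the leading differences were named by this same test, so the count does not show how common such differences are. Over all genes the difference passed for 2.9% at 8 µM and 2.41% at 200 µM. Both doses are set against the same vehicle arrays. Differences below 0 at both doses, the 8 µM value first, were -1.65 and -1.80 for A2m, -1.04 and -1.24 for Apoa5, -0.62 and -1.27 for Ccn2, and -1.33 and -1.29 for Cryab. They were -1.01 and -0.90 for Cyp1a2, -2.11 and -1.05 for Cyp2c11, -2.998 and -2.42 for Il1r2, and -1.95 and -2.17 for Npy. Those of Pglyrp1 were -1.19 and -0.999 and those of S100a6 -1.205 and -1.45. Apoa5 sets plasma triglycerides, Pglyrp1 binds bacterial peptidoglycan and S100a6 binds calcium. Differences above 0 at both doses were 1.10 and 0.69 for Abhd5, 0.98 and 0.69 for Aqp7, 1.33 and 1.41 for Fabp1, and 0.81 and 0.76 for Fads1. They were 0.73 and 0.55 for Rab40b, 1.196 and 1.25 for Scd2, 0.75 and 1.00 for Slc30a10, and 1.10 and 1.23 for Spc24. At 8 µM alone the difference passed for Afm (0.63), C9 (-0.41), Csad (0.84), Mapt (-1.87) and Prr15l (-2.39). For Mapt, 48 h vehicle replicate 4 read far above the other 48 h wells. At 200 µM alone it passed for Cyp2e1 (0.67), Ldhb (-0.46), Pdzk1ip1 (-2.46) and Sdf2l1 (1.19). All these differences are from the fit with all arrays. The difference between the doses was not tested.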

How the results depend on the processing

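The counts with all arrays were 515 higher and 624 lower in vehicle wells. Leaving out 1 vehicle array gave 378 to 697 higher and 443 to 728 lower, with the highest count of rises without 48 h replicate 4 and the lowest without 24 h replicate 5. For treated wells the ranges were 822 to 1150 higher and 698 to 1073 lower at 8 µM, and 705 to 1028 and 539 to 901 at 200 µM. Differences of drift numbered 289 to 582 at 8 µM and 220 to 488 at 200 µM, the highest of each without 48 h replicate 4. Median centring gave 90 and 210 genes in vehicle wells, 277 and 215 at 8 µM, 201 and 166 at 200 µM, and 42 and 28 differences. It moved the median of all genes to -0.13 and the log2 fold change of Il1r2 to -0.026. Without replicate 4 as well it gave 695 and 303. Fitting only the groups compared gave 170 and 172, with 205 and 176 differences, and 542 and 383 without replicate 4. A fold of at least 1.5 left 174 and 104, then 197 and 178 at 8 µM, 171 and 155 at 200 µM, and 147 and 112 differences. Array weights gave 719 and 571 in vehicle wells, 1122 lower at 8 µM, 1138 higher and 982 lower at 200 µM, and 596 and 528 differences. Quantile normalization gave 541 and 450 differences, and without replicate 4 also 674 and 576, with 1126 lower at 8 µM and 914 at 200 µM. The share of vehicle calls that were rises was 45.2% as reported, 56.5% without replicate 4, 30% after median centring, 54.8% with quantile normalization and no replicate 4, and 55.7% with array weights. The cause of these shifts was not tested.

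The replicate numbers pair nothing in the labels, and same-numbered wells deviated together with correlations of -0.057 to 0.077; a replicate block gave 532 and 690. For 58 named genes, 1270 of 1326 values kept their direction and side of the threshold, 54 lost the call, 1 gained it (Cyp2c11 without 48 h replicate 1) and 1 changed sign (Il1r2). Probe sets near background, whose signals replicate 4 raised most, carry the least certain folds.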

Other observations

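Genes of glucose metabolism moved in both directions in vehicle wells, in both fits and with all-array log2 fold changes given first and those without replicate 4 second. Of 23 measured genes of gluconeogenesis and glycolysis, 4 fell and 2 rose. Slc37a4, which carries glucose 6-phosphate into the endoplasmic reticulum, fell (-0.45 and -0.36), as did Gckr, the regulator of glucokinase (-0.36 and -0.26), Gpi (-0.30 and -0.17) and the liver pyruvate kinase gene Pklr (-0.24 and -0.28). Pfkl, the liver phosphofructokinase, rose (0.29 and 0.30) together with Pfkp. Of 27 measured respiratory chain genes 4 fell (Ndufa4, Ndufs1, Sdhb and Sdhc) and none rose, with all-array log2 fold changes of -0.30 to -0.25. After median centring none of the 27 was lower, either with all arrays or without replicate 4. Idh3a and Ogdh passed as higher only without replicate 4.

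Iron and metal genes also split. Of 22 measured members 3 fell and 3 rose. Besides Hamp and Slc30a10, the transferrin receptor gene Tfrc fell (-0.46 and -0.34). The iron exporter gene Slc40a1 rose (0.28 and 0.38), as did Steap4, a metalloreductase (0.35 and 0.40), and Id1, a target of the bone morphogenetic protein pathway (0.57 and 0.54). In the growth hormone list of 21 measured genes, Cyp2c12, Cyp2c13, Cyp3a2 and Obp3 (-0.56 and -0.51) fell, and Hao2, a peroxisomal hydroxyacid oxidase, rose (0.53 and 0.63). Of 14 measured p53 targets, Gadd45b (0.32 and 0.35) and Plk2 (0.35 and 0.35) rose. Over all genes 3.44% rose and 3.74% fell in both fits, and a count near those shares says nothing about a list. Of 30 measured matrix and adhesion genes 1 rose, the metalloproteinase inhibitor Timp3 (0.68 and 0.55). Of 27 measured NRF2 and antioxidant genes Gpx2 rose and Srxn1, Taldo1 and Akr1b8 fell. Of 28 measured genes of the integrated stress response 1 rose (Phgdh) and 2 fell (Slc3a2 and Shmt2). Amacr and Acox2 fell among 13 measured bile acid genes, Slc10a1 among 19 glucocorticoid targets, Psma7 among 25 proteasome genes, where Psma3 rose, and Klf10 among 25 immediate early genes, where Egr2 rose. No listed hypoxia or lysosome gene passed in both fits on its probe set with the highest signal, while a second probe set for the lysosomal membrane gene Lamp2 did (0.36 and 0.43).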
